A study of Homo sapiens with 15 samples.

Results

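The 9 genes described here carry retinoic acid through its life in a cell: STRA6 (uptake of retinol), RDH10, ALDH1A1 and ALDH1A3 (synthesis), CRABP1 and CRABP2 (binding), CYP26A1 and CYP26B1 (breakdown) and RARB (a nuclear receptor). They were picked by symbol for their function, out of 19684 genes in the deposited tables, when their values in these libraries were already known. Each symbol matched 1 gene identifier. Their levels and fold changes are therefore a description, without p-values, and tests are given for other retinoid genes only.

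RNA came from the human induced pluripotent stem cell line BC1-GFP (genotype WT) and from cells made from it, in 5 groups of 3 libraries. The groups were undifferentiated hiPSCs, neural retina (NR) layers of retinal organoids 70 days (D70-ROs) or 150 days (D150-ROs) after induction, and passaged Müller glial cells grown from the NR layers of D150-ROs, taken on day 5 of passage 1 (P1 iMGCs) or of passage 5 (P5 iMGCs). No drug or other treatment is listed for any group. All groups share this 1 line, and an RO library pools the NR layers of several organoids. The groups also differed in medium. The hiPSCs grew in mTeSR1, the ROs in a medium whose B27 supplement lacked vitamin A, then with fetal bovine serum and, from day 90, with N2 in place of B27, and the iMGCs in DMEM with serum. No added retinoic acid is listed for any of them. Medium, age and cell type follow each other in this design and cannot be told apart. The sources give either 3 or 2 independent experiments for hiPSCs and ROs, so the spread between replicates may be partly technical.

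Retinol enters cells through STRA6, is oxidized to retinal by RDH10 and then to retinoic acid by the ALDH1A enzymes. In the cytoplasm retinoic acid is held by CRABP1 and CRABP2, and CYP26 enzymes break it down. In the nucleus it binds a retinoic acid receptor (RARA, RARB or RARG) paired with a retinoid X receptor (RXR), and the pair sits on response elements, direct repeats of a short half-site. RARB and CYP26A1 are textbook targets of this pair. In the embryonic eye ALDH1A1 marks the dorsal and ALDH1A3 the ventral retina, and retinoic acid acts in optic cup shaping and later in photoreceptor development.

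Promoter sequence is shown for the receptor gene RARB and the breakdown gene CYP26A1, since both hold a pair of receptor half-sites just before their start. RefSeq windows (GRCh38.p14) from 250 bases before to 50 bases after the start were matched for 8 of the 9 genes, all but RDH10. They were searched on both strands for 2 half-sites that follow each other in the same direction with 1, 2 or 5 bases between them. The half-site is AGGTCA in its best known form, and AGTTCA was allowed too, as were the forms that open with G, which are GGTTCA and also GGGTCA. No window held matches of more than 1 of these spacings. A match was found for 2 of these 8 genes, with a spacer of 5 in both cases. It lay between bases −53 and −37 on the strand of RARB, and between bases −90 and −74 on the strand opposite to CYP26A1, where it reads AGTTCACCCAAAGTTCA. The spacing of 5 was held by 0.0883% of 35116 windows of this length, and any of the 3 spacings by 0.259%. These shares are per window, and the 8 genes have 16 windows. Neither match holds AGGTCA, so both rest on the further forms allowed. Both genes were known targets before the search, so no enrichment is read from these shares. None of the 46 other retinoid genes that have a window held a match. The 150 bases before the start follow on the strand of the gene, with the match in capitals.
RARB, chr3:25428113-25428262 (+): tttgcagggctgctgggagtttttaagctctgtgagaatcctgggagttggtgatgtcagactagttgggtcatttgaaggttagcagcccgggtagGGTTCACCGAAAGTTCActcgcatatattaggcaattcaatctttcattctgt
CYP26A1, chr10:93073743-93073892 (+): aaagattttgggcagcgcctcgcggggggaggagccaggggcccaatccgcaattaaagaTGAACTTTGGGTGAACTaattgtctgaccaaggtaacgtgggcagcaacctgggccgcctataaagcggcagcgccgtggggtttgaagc
A match is a description of the letters, not of binding.

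The 2 genes that hold such a match ran opposite ways from hiPSCs to D150-ROs: RARB was higher and CYP26A1 lower at each later stage. Between the passages RARB was higher at P5, and CYP26A1 had no more than 1 count in either group. The values of both are given below with the other genes.

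Values are given in FPKM, the fragments of a gene scaled by transcript length and by all mapped fragments, or as log2 fold changes fitted by edgeR to the expected counts with TMM scaling. The libraries held between 11349600 and 20398755 expected counts. Intervals and lower bounds cover counting error only. In bulk RNA, fewer cells of a type and less RNA per cell cannot be told apart. Marker genes placed the groups broadly as labelled for hiPSCs and ROs: 5 of 5 pluripotency markers reached 1 FPKM in every hiPSC library, 6 of 6 retinal progenitor markers in every RO library, and 6 of 6 photoreceptor markers in every D150-RO library. In the iMGCs, of 5 Müller glia markers, AQP4 had no count in either passage and RLBP1 had 0 counts in P1 and 1 in P5. SLC1A3 stood at 0.36 to 1.23 FPKM, against 27.55 to 28.71 in D150-ROs. GLUL stood at 12.25 to 15.22 FPKM, against 97.64 to 102.32 in D150-ROs. APOE stood at 33.78 to 40.90 FPKM, against 11.50 to 15.20 in D150-ROs and 511.23 to 572.99 in hiPSCs. All 6 mesenchymal and fibroblast markers reached 1 FPKM in every iMGC library, and their sum was 2245 to 2783 FPKM against 20.99 to 24.48 FPKM in D150-ROs, most of it COL1A1. The photoreceptor gene CRX had no count in either passage. These markers moved with every difference between iMGCs and ROs given below, and their part in those differences was not tested.

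**Figure D1:**
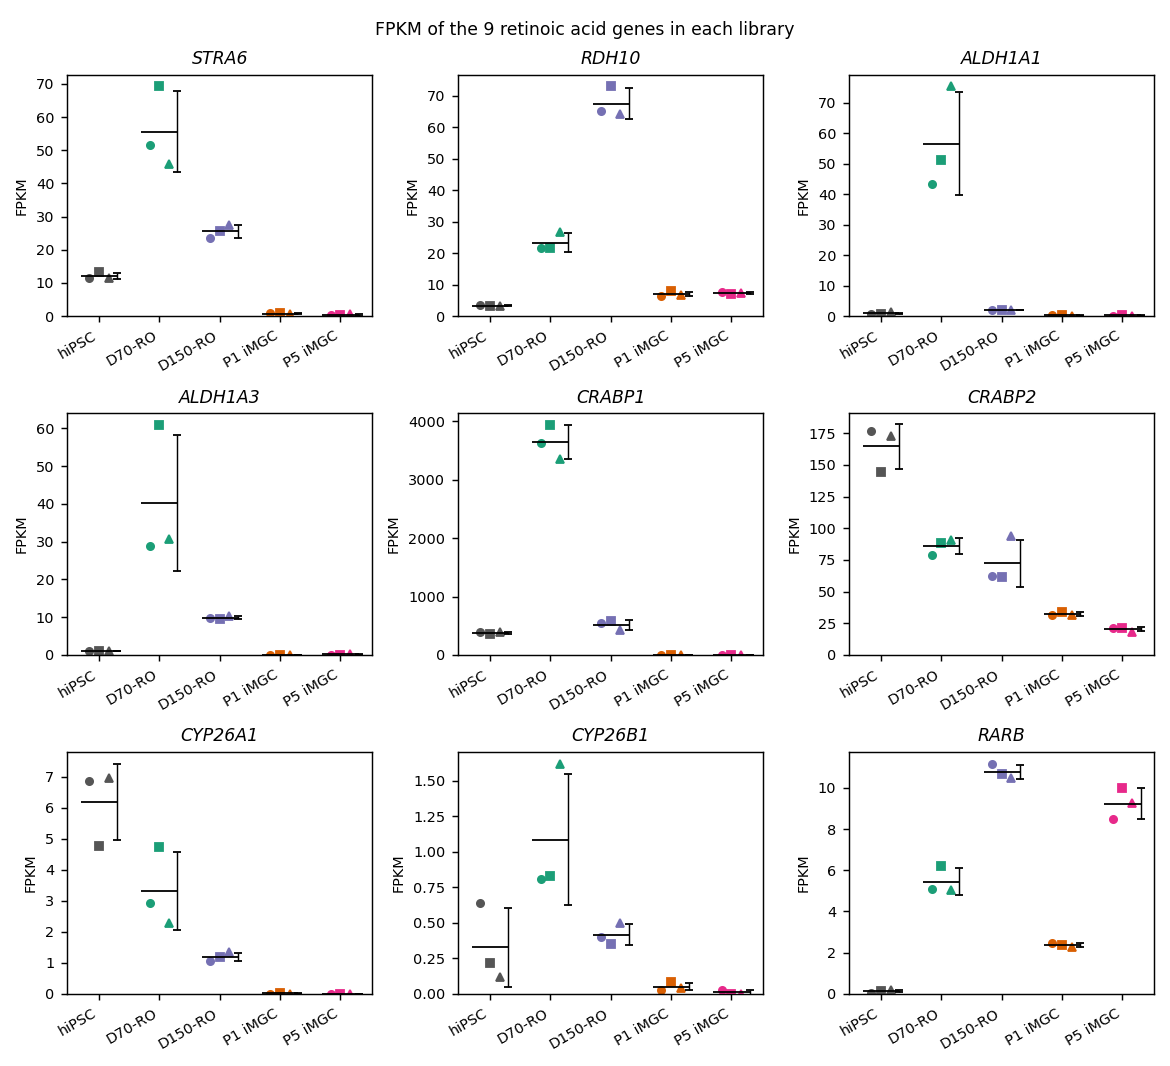
FPKM (linear axes from 0, a different range in each panel) of the 9 genes in the 15 libraries. Symbols mark replicates 1 (circle), 2 (square) and 3 (triangle), horizontal lines the mean and error bars the SD of 3 libraries. STRA6, ALDH1A1, ALDH1A3 and CRABP1 stand highest in D70-ROs, RDH10 and RARB in D150-ROs, and CRABP2 and CYP26A1 in hiPSCs.

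The genes of the set did not follow a single course. STRA6, ALDH1A1, ALDH1A3, CRABP1 and the very low CYP26B1 were highest in D70-ROs, RDH10 and RARB in D150-ROs, and CRABP2 and CYP26A1 in hiPSCs. In the iMGCs only CRABP2, RDH10 and RARB had a mean of at least 1 FPKM.

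STRA6 is the membrane receptor that takes up retinol from its plasma carrier. The hiPSCs held 11.45, 13.16 and 11.46 FPKM, the D70-ROs 51.73, 69.37 and 45.73 FPKM and the D150-ROs 23.49, 25.77 and 27.48 FPKM. In P1 iMGCs it stood at 0.79, 0.81 and 0.59 FPKM, and in P5 iMGCs at 0.19, 0.17 and 0.55 FPKM. No neighbouring groups overlapped, although the lowest P1 library and the highest P5 library were close. The fitted log2 fold change was 2.09 (SE 0.18) from hiPSCs to D70-ROs, −1.43 (SE 0.18) from D70-ROs to D150-ROs and −4.37 (SE 0.14) from D150-ROs to P1 iMGCs. STRA6 overlaps CCDC33 on the opposite strand, with means of 0.27 FPKM in hiPSCs, 5.01 at D70, 2.91 at D150 and 0 in both passages. The part of CCDC33 in the STRA6 values was not tested.

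RDH10 encodes the retinol dehydrogenase that makes retinal. The hiPSCs held 3.49, 3.23 and 3.24 FPKM, the D70-ROs 21.49, 21.72 and 26.83 FPKM and the D150-ROs 65.19, 73.23 and 64.06 FPKM. It then stood at 6.46, 7.88 and 6.67 FPKM in P1 iMGCs and at 7.61, 7.03 and 7.17 FPKM in P5 iMGCs. RDH10 was thus higher at the later RO stage, where both ALDH1A genes, the next step, were lower. Its log2 fold change was 2.86 (SE 0.16) at D70 over hiPSCs, 0.98 (SE 0.09) at D150 over D70, just short of the 2-fold limit used for DEGs, and −2.41 (SE 0.07) in P1 iMGCs over D150-ROs. The passages overlapped, with a log2 fold change of 0.04 (SE 0.09), and the sign turned to −0.04 without P5 iMGC replicate 3. Between the RO stages, limma on log2(FPKM + 1) put the change of RDH10 at 1.50 in place of 0.98. FPKM also divides by a transcript length estimated in each library, and the part of that in the difference was not tested. RDH10 overlaps RPL7 on the opposite strand, which stood at 2483 FPKM at D70 and 761 FPKM at D150.

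ALDH1A1 and ALDH1A3 oxidize retinal to retinoic acid. For ALDH1A1 the hiPSCs held 0.78, 0.73 and 1.16 FPKM, the D70-ROs 43.29, 51.02 and 75.45 FPKM and the D150-ROs 2.10, 2.08 and 2.02 FPKM, and no iMGC library exceeded 0.33 FPKM. The D70-ROs stood far above all other groups. Summed over 3 libraries, the hiPSCs held 96 counts, the D70-ROs 5833 and the D150-ROs 168. The 3 D150-RO libraries gave nearly equal FPKM from 41, 57 and 70 counts. The fitted level was 66.4-fold higher in D70-ROs than before differentiation (log2 fold change 6.05, SE 0.25) and 39.6-fold lower at D150 than at D70 (log2 fold change −5.31, SE 0.25). From D150-ROs to P1 iMGCs, where 22 counts remained, the log2 fold change was −2.33 (SE 0.34).

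For ALDH1A3 the hiPSCs held 1.00, 0.97 and 1.16 FPKM, the D70-ROs 28.95, 60.94 and 30.61 FPKM and the D150-ROs 9.75, 9.56 and 10.23 FPKM. P1 iMGCs held 0.04, 0 and 0.02 FPKM and P5 iMGCs 0.09, 0.06 and 0.17 FPKM. D70-RO replicate 2 stood apart from the other two, whereas for ALDH1A1 replicate 3 was the highest. ALDH1A3 was 34.9-fold higher in D70-ROs than before differentiation (log2 fold change 5.13, SE 0.33) and 4.87-fold lower at D150 than at D70 (−2.29, SE 0.29). It had 3 counts in P1 iMGCs against 1737 in D150-ROs, a log2 ratio with a 95% counting interval of −10.87 to −7.04. P5 iMGCs had 16 counts (interval of the log2 ratio to P1, 0.67 to 4.90).

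The balance of the 2 synthesis genes turned between the RO stages. The FPKM of ALDH1A1 was 1.50, 0.837 and 2.46 times that of ALDH1A3 in the D70-ROs, and 0.215, 0.218 and 0.197 times in the D150-ROs. The 2 groups did not overlap in this ratio, and D70-RO replicate 2 was the only D70 library under 1. In the same library the optic stalk gene PAX2 stood at 29.26 FPKM against 16.90 and 5.67 in the other two, VAX1 at 3.08 against 0.69 and 1.00, and the retinal reductase DHRS3 at 18.15 against 10.20 and 7.47. It also had the lowest total of all 15 libraries. Whether these values bear on its ALDH1A3 level was not tested. Of 6 genes listed as marks of the dorsal or ventral retina, 5 stood lower in all D150-RO than in all D70-RO libraries: dorsal TBX5 (1.73 to 2.35 FPKM at D70, 0.39 to 0.81 at D150), TBX2 (73.17 to 78.28, then 38.92 to 43.79), BMP4 (4.40 to 6.29, then 0.50 to 0.82) and NR2F2 (20.12 to 22.20, then 7.19 to 10.10), and ventral VAX2 (14.10 to 19.02, then 8.80 to 9.88). Dorsal TBX3 stood higher, at 1.13 to 1.88 and then 2.52 to 4.55 FPKM.

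CRABP1 binds retinoic acid in the cytoplasm, and it was by far the most abundant gene of the set. The hiPSCs held 394.18, 354.72 and 389.07 FPKM, the D70-ROs 3623.51, 3940.82 and 3360.63 FPKM and the D150-ROs 545.03, 581.25 and 418.71 FPKM. In D70-ROs CRABP1 ranked 14, 13 and 17 among all genes by FPKM and took up 0.280%, 0.304% and 0.259% of all counts. Its rank was 183, 201 and 183 in hiPSCs and 52, 55 and 74 in D150-ROs. It was 8.74-fold higher in D70-ROs than before differentiation (log2 fold change 3.13, SE 0.12) and 8.26-fold lower at D150 than at D70 (−3.05, SE 0.15), and D150-ROs lay only just above hiPSCs. No count of CRABP1 was left in any of the 6 iMGC libraries. With 19155 counts in D150-ROs and the floor of 3 counts over a group, it was at least 4249-fold lower in P1 iMGCs.

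CRABP2, which hands retinoic acid to the receptors in the nucleus, took another course. The hiPSCs held 176.89, 144.10 and 172.79 FPKM, the D70-ROs 79.16, 88.36 and 90.74 FPKM and the D150-ROs 62.15, 61.45 and 93.86 FPKM. It remained at 31.51, 33.95 and 31.22 FPKM in P1 iMGCs and at 21.61, 21.11 and 18.43 FPKM in P5 iMGCs. The RO stages overlapped, and the other neighbouring groups did not. The log2 fold changes along the series were −1.17 (SE 0.13), −0.43 (SE 0.17), −0.51 (SE 0.13) and −0.58 (SE 0.08), all downward. The ratio of CRABP1 to CRABP2 was accordingly 2.23 to 2.46 in the hiPSC libraries, 37.0 to 45.8 at D70 and 4.46 to 9.46 at D150. In the iMGCs CRABP2 alone was left of the 2. FABP5, a fatty acid binding protein that can also carry retinoic acid, stood at 30.94 to 87.23 FPKM in the RO libraries and at 21.62 to 31.35 FPKM in the iMGCs, and edgeR called it in none of the 4 comparisons, with log2 fold changes of −0.95, 0.64, −0.68 and −0.27 in the same order. It was called lower in P1 iMGCs than in D150-ROs by limma on log2(FPKM + 1), and lower at D70 than before differentiation without D70-RO replicate 1 or replicate 3.

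CYP26A1 and CYP26B1 encode the enzymes that hydroxylate and so clear retinoic acid. CYP26A1 was lower at each step, with 6.85, 4.77 and 6.94 FPKM in the hiPSC libraries, 2.91, 4.73 and 2.29 FPKM in the D70-ROs and 1.07, 1.17 and 1.34 FPKM in the D150-ROs. P1 iMGCs had 1 count in all, and P5 iMGCs had none. The hiPSCs and D70-ROs almost met, at 4.77 and 4.73 FPKM in their nearest libraries. The log2 fold change was −1.06 (SE 0.27) and then −1.67 (SE 0.31), and the 1 count in P1 iMGCs against 123 in D150-ROs gave a log2 ratio with a 95% counting interval of −11.67 to −3.85. CYP26B1 was close to the limit of detection throughout. Its highest libraries were the D70-ROs, at 0.81, 0.83 and 1.62 FPKM, followed by 0.40, 0.35 and 0.50 FPKM in D150-ROs, 0.64, 0.22 and 0.12 FPKM in hiPSCs and at most 0.08 FPKM in iMGCs. It never passed the filter of 1 FPKM in 3 libraries, so no fold was fitted. D70-ROs did not overlap with their neighbours in the series, and D150-ROs overlapped with hiPSCs.

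Set against each other, the summed FPKM of the synthesis enzymes ALDH1A1, ALDH1A2 and ALDH1A3 was below that of the breakdown enzymes CYP26A1, CYP26B1 and CYP26C1 in each hiPSC library and above it in each RO library. The synthesis sum was 1.76 to 2.40 FPKM before differentiation, 72.95 to 112.24 FPKM at D70 and 11.73 to 12.43 FPKM at D150. The breakdown sum was 5.09 to 7.55, 3.75 to 5.56 and 1.47 to 2.07 FPKM. In the iMGCs the sums did not exceed 0.39 and 0.11 FPKM. ALDH1A2 and CYP26C1 had a mean under 1 FPKM in every group. RNA levels do not give the amount of retinoic acid, which was not measured.

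**Figure D2:**
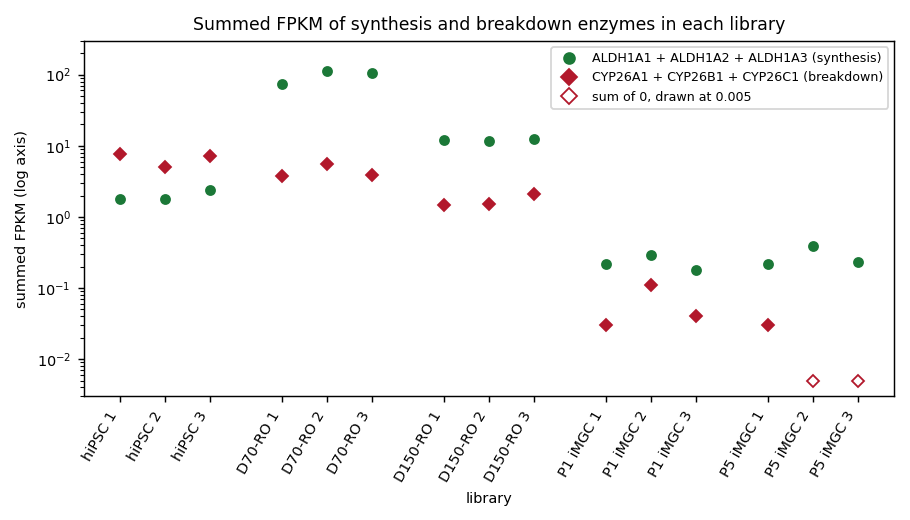
Summed FPKM (log axis) of the 3 ALDH1A synthesis genes (circles) and of the 3 CYP26 breakdown genes (diamonds) in each library, with sums of 0 drawn open at 0.005. The diamonds lie above the circles in the 3 hiPSC libraries and below them in all other libraries, and both are under 0.4 FPKM in the iMGCs.

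RARB, 1 of the 2 genes with the half-site match shown above, encodes a retinoic acid receptor. It was nearly absent from hiPSCs at 0.06, 0.12 and 0.17 FPKM (18 counts in all), while the D70-ROs held 5.11, 6.20 and 5.05 FPKM and the D150-ROs 11.18, 10.68 and 10.49 FPKM. P1 iMGCs held 2.48, 2.37 and 2.29 FPKM, and P5 iMGCs 8.47, 10.01 and 9.25 FPKM. All 5 groups were separate from each other, with the P5 iMGCs just under the D150-ROs. RARB was 43.6-fold higher in D70-ROs than before differentiation (log2 fold change 5.45, SE 0.33, and 6.17 without hiPSC replicate 3). It was 1.59-fold higher at D150 than at D70 (0.67, SE 0.11) and 2.54-fold lower in P1 iMGCs than in D150-ROs (−1.35, SE 0.10). Between the passages it was 4.21-fold higher at P5 (log2 fold change 2.07, SE 0.10), with 1394 counts against 346. The gene body of RARB overlaps TOP2B on the opposite strand, and the strandedness of the libraries is not stated. The mean FPKM of TOP2B was 28.5 in hiPSCs, 58.5 at D70, 120 at D150, 35.5 in P1 and 28.1 in P5 iMGCs, so it was higher or lower together with RARB at the first 3 steps and not between the passages. Its part in the RARB values was not tested.

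**Figure D3:**
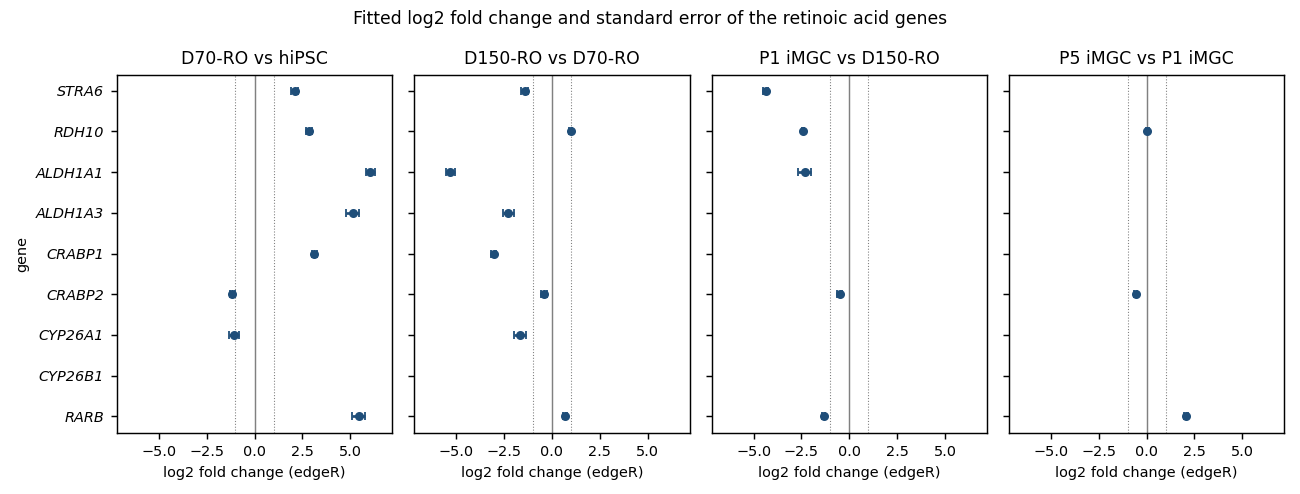
Log2 fold change fitted by edgeR (points) with its SE (bars) for each gene in the 4 comparisons of neighbouring groups, 3 libraries each. Dotted lines mark a 2-fold change. Genes that did not pass the filter, or with 3 counts or fewer in a group, have no point. Between the RO stages the points of RDH10 and RARB lie right of 0 and all others left of it, and between the passages RARB alone lies beyond 2-fold.

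Of the 9 genes, 8 passed the filter between D70-ROs and hiPSCs, and 6 were past the limits for DEGs upward and 2 downward, where 22.5% and 21.1% of the 12954 genes tested were called in these directions (43.5% in either). Both downward genes lie near the 2-fold limit. CYP26A1 came under it with upper-quartile factors (−0.97), with limma on log2(FPKM + 1) (−0.76) and without hiPSC replicate 1 or 3 or D70-RO replicate 1 or 3 (−0.85 to −0.98), and CRABP2 with limma on log2(FPKM + 1) (−0.92). The test against a 2-fold change called neither, so the downward count was 0 to 2. Between D150-ROs and D70-ROs 8 passed the filter, with 0 past the limits upward and 5 downward, against 16.6% and 16.7% of all genes (33.3% in either). RDH10 passed the limit upward with limma and without D70-RO replicate 3 or D150-RO replicate 1. Between P1 iMGCs and D150-ROs 8 passed, 0 and 7 were past the limits, against 20% and 24.1% (44.1% in either). Between P5 and P1 iMGCs 3 passed, and RARB alone was past the limits, upward, against 1.94% of 11366 genes (2.92% in either). Neighbouring comparisons share a group of libraries. The genes were chosen with these values known, so nothing is read from the counts.

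Length and scaling touch some of these values. Between the RO stages the median log2 fold change was −0.67 in the 1 of 4 equal length classes with the shortest transcripts, which holds CRABP1, CRABP2, ALDH1A1 and CYP26A1, −0.15 in the second class with STRA6 and RARB, 0.14 in the third with RDH10 and ALDH1A3, and 0.57 in the longest. The part of length in the members' changes was not tested. The log2 fold changes of CRABP1, ALDH1A1 and CYP26A1 lay below the median of their class and that of CRABP2 above it. On log2(FPKM + 1) the change of a gene from D150-ROs to P1 iMGCs lay, at the median, 0.58 below the TMM-scaled one, so a gene looks lower in the iMGCs by its FPKM than by its fitted fold. CRABP2 for instance changed by −1.12 on that scale against −0.51 with TMM factors. The iMGC and RO libraries also come from separate tables, and the counts used for this comparison are not normalized in either.

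Genes with the most similar course were sought among 13915 genes by the root mean square difference of the 5 group means of log2(FPKM + 1), each centred on its own mean. CYP26A1 was nearest to FEN1 (0.0615), a nuclease of DNA replication, and TFAP4 (0.0789), and CRABP2 to NR1H3 (0.0876), which encodes another partner of RXR, and PPP1R35 (0.155). RDH10 was nearest to PPP1R3E (0.148) and PDE4D (0.163), and STRA6 to FZD5 (0.279) and RAB3A (0.284). ALDH1A1 was nearest to PTH2 (0.279) and to ATOH7 (0.319), a transcription factor of early ganglion cell formation that went from 0.48 to 69.6 and 3.12 FPKM along hiPSCs, D70-ROs and D150-ROs. ALDH1A3 was nearest to CACNG4 (0.166). CRABP1 was nearest to SFRP2 (1.92) and TTYH1 (1.96). The distance grows with the range of a gene, and CRABP1 ran from a mean of 3642 FPKM at D70 to no count in the iMGCs. RARB was nearest to ABCB1 (0.340) and PCDHGB6 (0.406). The level of CYP26B1 is so low that its course is almost flat on this scale, and its nearest genes, MFF (0.0395) and ADCK2 (0.0489), say little. Within the set, CRABP2 and CYP26A1 (0.298) were the nearest pair, followed by ALDH1A1 and ALDH1A3 (0.830). ATOH7 was among 5 ganglion cell markers, whose sum was 121 to 134 FPKM in D70-ROs and 5.91 to 7.36 FPKM in D150-ROs, and the part of these cells in the course of ALDH1A1 was not tested.

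The rest of the pathway was followed in 64 further retinoid genes, listed by function with earlier results of these data known. In 24 of them no group reached a mean of 1 FPKM, among them ALDH1A2, CYP26C1, RPE65, 5 alcohol dehydrogenases and the early targets HOXB1, HOXA4, HOXB4, HOXD4 and CDX1. Between D70-ROs and hiPSCs 32 of the 64 were tested, of which 13 rose and 5 fell by the quasi-likelihood test of edgeR, with p adjusted over all genes after Benjamini and Hochberg. Their median log2 fold change was 0.28 against 0.02 over all genes tested, and 56.25% of them were called against 43.5% of all genes tested. Between D150-ROs and D70-ROs 13 of 37 rose and 6 fell (median 0.27 against −0.01, 51.4% called against 33.3%). Between P1 iMGCs and D150-ROs 6 of 39 rose and 17 fell (median −0.60 against −0.05, 59.0% called against 44.1%). DESeq2 gave the same counts, while limma on log2(FPKM + 1) called 4 higher and 21 lower. A gene near 0 in 1 group can pass the filter only through the other group, which sets its direction. Between the passages, of 26 tested, none was called higher and 1 was called lower (median −0.04 against 0.00, 3.85% called against 2.92%). The 1 called gene, DHRS9, passed the filter only through the P1 iMGCs. Other genes had an edgeR adjusted p under 0.05 but changed by less than 2-fold. Among them were PLAT, lower (−0.41, edgeR adjusted p = 4.49e-05), and RDH13, higher (0.45, edgeR adjusted p = 0.0489). In that last comparison 3 had an unadjusted p under 0.05 upward and 7 downward, and DESeq2 and limma also called 0 upward and 1 downward.

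**Figure D4:**
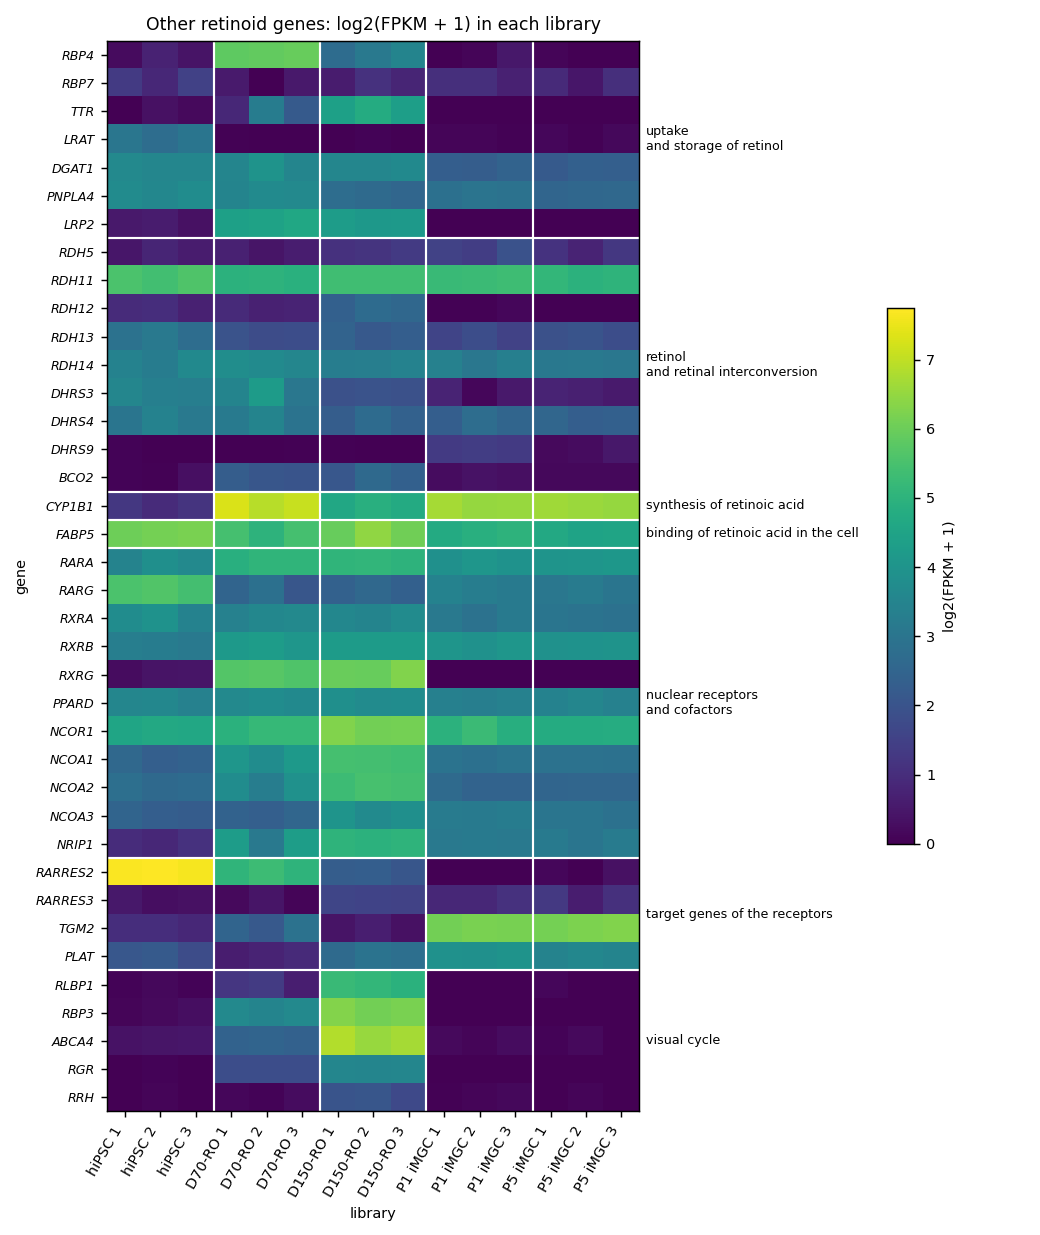
Log2(FPKM + 1) (colour) of 38 further retinoid genes whose mean reached 1 FPKM in at least 1 group, by role (rows) and library (columns). CYP1B1 and RBP4 are brightest in D70-ROs and the visual cycle genes in D150-ROs, and in the iMGCs CYP1B1 and TGM2 are bright while RXRG and the visual cycle genes are dark.

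Among the genes of retinol uptake and storage, 3 of 6 tested rose from hiPSCs to D70-ROs and 1 fell. Of all genes tested, 22.5% and 21.1% were called in these directions. RBP4, the plasma carrier that STRA6 recognizes, rose from 0.39 ± 0.25 FPKM (SD, n = 3) to 57.97 ± 2.57 FPKM (log2 fold change 7.27, edgeR adjusted p = 2.52e-09), and LRP2, an endocytic receptor that also takes up retinol with its carrier, rose from 0.41 ± 0.12 to 21.47 ± 1.91 FPKM (5.17, edgeR adjusted p = 1.20e-09). LRAT, which stores retinol as esters, went the other way. It stood at 7.16, 5.77 and 7.10 FPKM in hiPSCs and had 3 counts in D70-ROs against 1544 (95% counting interval of the log2 ratio −11.16 to −7.33, edgeR adjusted p = 1.20e-08). RBP4, LRP2 and LRAT each passed the filter in this comparison through 1 group only, so their direction was set by the filter. Between the RO stages RBP4 fell by 3.22 on the log2 scale (edgeR adjusted p = 9.40e-07), while TTR, the plasma partner of RBP4, rose by 2.44 (edgeR adjusted p = 0.00287) from unequal D70 levels of 0.80, 8.46 and 3.57 FPKM, and by 3.26 without D70-RO replicate 2. In P1 iMGCs 4 of 7 tested genes fell below D150-ROs, where 24.1% of all genes tested were called lower. Among the 4 were RBP4, at most 0.42 FPKM, and LRP2 and TTR, with no count, at least 2783-fold and 180-fold lower. RBP4, LRP2 and TTR passed the filter there only through the D150-ROs, so their direction was set by the filter.

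Of the genes that interconvert retinol and retinal, RDH13 fell (−1.47, edgeR adjusted p = 3.73e-05) and BCO2, which cleaves carotenoids, rose (5.01, edgeR adjusted p = 7.87e-07, and 5.93 without hiPSC replicate 3) between hiPSCs and D70-ROs, and the other 4 tested were not called. Over all genes tested 43.5% were called in this comparison. BCO2 passed the filter only through the D70-ROs, which set its direction. DHRS3, which turns retinal back into retinol, held 8.94 to 10.83 FPKM in hiPSCs, 7.47 to 18.15 at D70, 2.75 to 2.96 at D150 and at most 0.72 in iMGCs. It fell by 2.28 on the log2 scale between the RO stages (edgeR adjusted p = 2.62e-04) and again in P1 iMGCs (−2.41, edgeR adjusted p = 3.83e-06). Against P1 iMGCs DHRS3 passed the filter only through the D150-ROs, which set its direction there. RDH12, a photoreceptor enzyme, rose by 2.46 between the RO stages (edgeR adjusted p = 1.46e-05) and was at most 0.09 FPKM in iMGCs. RDH5 rose in the same step (1.33, edgeR adjusted p = 0.00536) and from D150-ROs to P1 iMGCs (1.32, edgeR adjusted p = 2.82e-04), although it stayed under 3 FPKM, and both calls were lost with limma on log2(FPKM + 1) and in a test against a 2-fold change. Between the RO stages RDH12 and RDH5 passed the filter only through the D150-ROs, so their direction was set by the filter. DHRS9, an oxidizing enzyme, was the 1 gene of the 26 that was called between the passages. It had 1 count in D150-ROs, stood at 1.51, 1.65 and 1.51 FPKM in P1 iMGCs and at 0.15, 0.19 and 0.41 FPKM in P5 iMGCs (log2 fold change −2.78, SE 0.34, edgeR adjusted p = 4.80e-07). Between the passages DHRS9 passed the filter only through the P1 iMGCs, so its direction was set by the filter.

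CYP1B1, a cytochrome that can make retinoic acid without an ALDH1A enzyme but has other substrates too, shared the D70 peak and then parted from ALDH1A1 and ALDH1A3. The hiPSCs held 1.41, 0.95 and 1.22 FPKM, the D70-ROs 157.59, 119.22 and 135.62 FPKM and the D150-ROs 24.07, 28.20 and 25.59 FPKM. It rose again to 103.26, 90.73 and 92.43 FPKM in P1 iMGCs and stayed at 97.78, 95.18 and 89.51 FPKM in P5 iMGCs. The log2 fold changes were 6.80 (SE 0.16, edgeR adjusted p = 2.14e-10), −2.64 (SE 0.12, edgeR adjusted p = 3.32e-07) and 2.54 (SE 0.07, edgeR adjusted p = 6.96e-15), and between the passages 0.04. Of the 5 listed enzymes that make retinoic acid (ALDH1A1, ALDH1A2, ALDH1A3, ALDH8A1 and CYP1B1), only CYP1B1 had a mean above 1 FPKM in the iMGCs.

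The receptors changed in their mixture. RARG made up 78.1% to 82.2% of the summed FPKM of the 3 RARs in hiPSCs, and it fell from 45.47 ± 3.56 to 4.68 ± 1.47 FPKM in D70-ROs (log2 fold change −3.49, SE 0.22, edgeR adjusted p = 9.20e-08). RARA rose in the same step from 11.62 ± 1.81 to 30.91 ± 2.35 FPKM (1.45, SE 0.15, edgeR adjusted p = 5.63e-06) and made up 72.3% to 79.5% of the sum in D70-ROs. The share of RARB was 0.107% to 0.320% in hiPSCs, 12.5% to 13.9% at D70, 21.9% to 23.4% at D150, 8.82% to 9.56% in P1 iMGCs and 27.5% to 29.7% in P5 iMGCs. RARA and RARG were not called between the RO stages (−0.19 and −0.24) or between the passages (0.04 and −0.16). From D150-ROs to P1 iMGCs RARG rose (1.65, SE 0.11, edgeR adjusted p = 1.33e-09), a call that limma on log2(FPKM + 1) did not make because its fold change there was 0.83. RXRG, a retinoid X receptor found in cones, rose from 0.30 ± 0.09 to 49.78 ± 2.18 FPKM between hiPSCs and D70-ROs (7.24, SE 0.21, edgeR adjusted p = 5.26e-10), stood at 65.76 ± 8.80 FPKM in D150-ROs and had no count in any iMGC library, at least 1443-fold lower in P1. Against hiPSCs and against P1 iMGCs RXRG passed the filter only through the ROs, which set its direction. RXRA was called in no comparison by any tool run, RXRB was called only between D70-ROs and hiPSCs by limma on log2(FPKM + 0.1), and both lay between 6.33 and 18.49 FPKM in all 15 libraries.

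**Figure D5:**
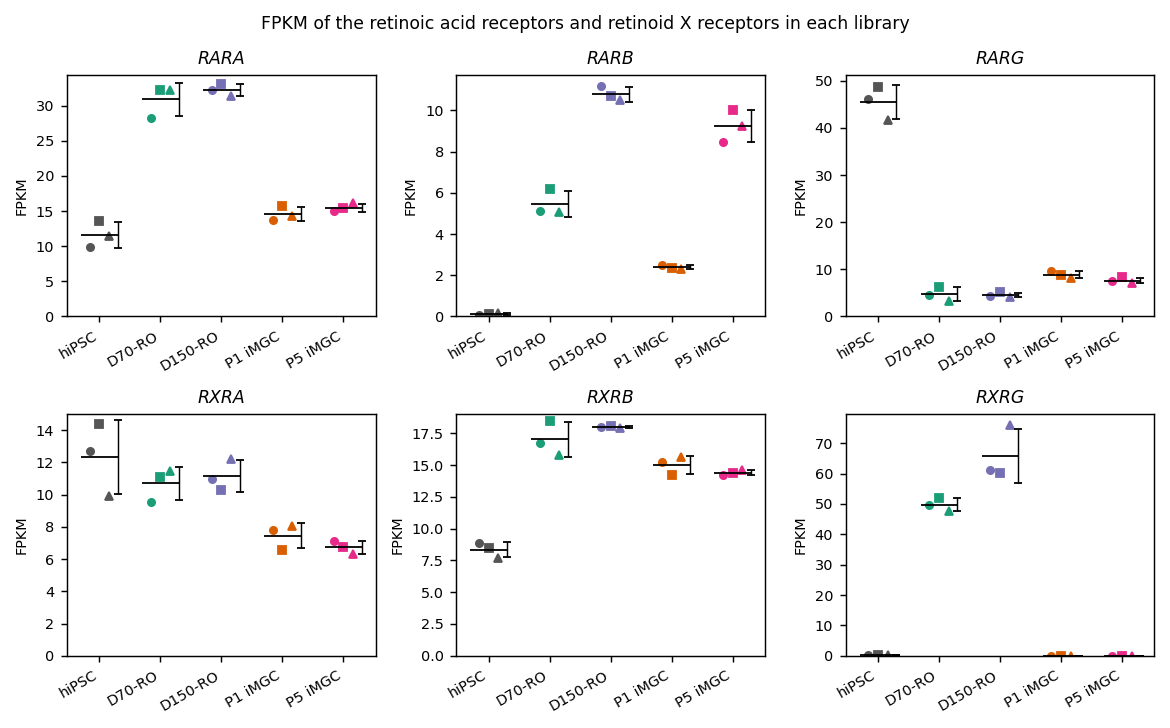
FPKM (linear axes from 0, a different range in each panel) of the 3 RARs and the 3 RXRs in each library, with the mean (line) and SD (bar) of 3 libraries and symbols for replicates 1 (circle), 2 (square) and 3 (triangle). RARG is highest in hiPSCs, RARA and RXRG are highest in ROs, and RARB is the receptor that stands higher in P5 than in P1 iMGCs without overlap, at 8.47 to 10.01 against 2.29 to 2.48 FPKM.

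Of the cofactors, NCOA1 (1.68, edgeR adjusted p = 7.73e-07) and NRIP1 (3.90, edgeR adjusted p = 5.83e-07) rose between hiPSCs and D70-ROs. The coactivators NCOA1, NCOA2 and NCOA3 rose between the RO stages by 1.19, 1.37 and 1.34 on the log2 scale, and NCOA1, NCOA2 and NRIP1 fell in P1 iMGCs, with log2 fold changes of −2.02, −2.16 and −1.28. The NCOA1 call between the RO stages was lost in the test against a 2-fold change. The corepressor NCOR1 was not called by edgeR or DESeq2 in any comparison, but limma on log2(FPKM + 1) called it higher at D150 than at D70 and lower in P1 iMGCs than at D150.

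Genes commonly used as readouts of the receptors moved in different directions from each other. TGM2, a transglutaminase, rose from 0.94 ± 0.12 to 4.89 ± 1.56 FPKM between hiPSCs and D70-ROs (2.37, edgeR adjusted p = 4.49e-07), fell to 0.39 ± 0.17 FPKM in D150-ROs (−3.65, edgeR adjusted p = 4.19e-06) and rose to 69.85 ± 1.88 FPKM in P1 iMGCs (8.13, SE 0.11, edgeR adjusted p = 4.48e-18). It was at 72.52 ± 4.14 FPKM in P5 iMGCs, not called against P1 (0.11). RARRES2, the chemerin gene, fell at every step up to P1: from 205.80 ± 8.18 FPKM in hiPSCs to 34.30 ± 4.05 at D70 (−2.74, edgeR adjusted p = 1.07e-08), to 3.68 ± 0.43 at D150 (−3.39, edgeR adjusted p = 5.04e-07) and to no count in P1 iMGCs, at least 28.6-fold lower. PLAT, tissue plasminogen activator, fell to D70-ROs (−2.32, edgeR adjusted p = 7.07e-06), then rose in D150-ROs (2.92, edgeR adjusted p = 2.92e-06) and in P1 iMGCs (1.89, edgeR adjusted p = 6.56e-12). RARRES3 rose between the RO stages (3.29, edgeR adjusted p = 3.19e-04, and 3.90 without D70-RO replicate 2) to no more than 2.07 FPKM. Several of these directions were set by the filter, which the gene passed through 1 group only. This holds for TGM2 between the RO stages and in P1 iMGCs, and for RARRES2 in P1 iMGCs. It also holds for PLAT between hiPSCs and D70-ROs, and for PLAT and RARRES3 between the RO stages.

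The visual cycle, the other use of retinoids in the retina, followed the late RO stage. All 5 tested genes rose between D70-ROs and D150-ROs and all 5 fell in P1 iMGCs. Of all genes tested, 16.6% were called higher in the first of these comparisons and 24.1% lower in the second. In the comparison with P1 iMGCs all 5 passed the filter only through the D150-ROs, so their direction there was set by the filter. The same holds between the RO stages for RRH, which stood at 0.06 to 0.19 FPKM at D70. RLBP1, the retinal carrier of Müller glia and pigment epithelium, rose from 1.16 ± 0.51 to 33.51 ± 3.66 FPKM (4.66, edgeR adjusted p = 1.19e-06). ABCA4, the photoreceptor transporter, rose from 4.44 ± 0.14 to 103.37 ± 10.53 FPKM (4.49, edgeR adjusted p = 4.16e-08), and RBP3, the carrier between the cells, from 11.06 ± 0.71 to 72.58 ± 5.46 FPKM (2.49, edgeR adjusted p = 1.39e-07). RGR and RRH rose by 1.96 and 4.22 on the log2 scale. In P1 iMGCs RLBP1, RBP3 and RGR had no count, at least 642-fold, 3318-fold and 185-fold lower than in D150-ROs, and ABCA4 and RRH were at most 0.20 FPKM. RPE65, the isomerase of the pigment epithelium, did not exceed 0.12 FPKM in any library. Photoreceptor markers moved the same way as these genes, summing to 122.84 to 128.03 FPKM in D70-ROs, 852.70 to 973.06 in D150-ROs and at most 0.56 in iMGCs.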

How the data were processed

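Poly(A) RNA was sequenced in 15 libraries. The authors used HISAT2 for mapping, StringTie for assembly and RSEM for counting, and versions, genome build and annotation are not given in the sources used here. The deposited values are expected counts, estimated by the authors' RSEM run and not normalized, and FPKM, in which the authors corrected for transcript length and depth. The series' design text also names a correction between data batches for joint analyses and does not say which values it touched, so whether the FPKM carry it is not known. Counts were rounded. A further table was not used: its 12 columns of per-sample values repeat the D150-ROs and hold 6 iMGC columns that name no passage.

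Neighbouring groups were compared 2 at a time with edgeR's quasi-likelihood test (edgeR 4.0.16, R 4.3.3, TMM factors, no covariates) for genes that reached 1 FPKM in 3 or more of the 6 libraries. DEGs passed 0.05 after Benjamini-Hochberg adjustment and changed at least 2-fold. Alternatives were no filter on FPKM, DESeq2 1.42.0, upper-quartile factors, 1 fit of all 15 libraries, a test against a 2-fold change, a replicate block, limma 3.58.1 on log2(FPKM + 1) or log2(FPKM + 0.1), and each library left out. Fits were tested on simulated data. Equal replicate numbers were not taken to pair libraries. Only 2 of 12 correlations of their deviations exceeded 0.1 (range −0.060 to 0.321), both between D70-ROs and hiPSCs (0.321 and 0.137). These correlations cannot settle whether libraries share an experiment. A gene without counts was given a floor of 3 counts over the group, and for 1 to 3 counts a 95% exact counting interval is given. No batch is given per library, so batches and groups cannot be told apart.

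The members and the lists of other retinoid genes and markers were chosen with earlier results of these data known. Other retinoid genes are named if among the 6 called genes with the largest change in each direction, or needed to describe their role, and each member's 2 nearest genes are named by the distance given in the text. A few items are not reported here by name. Promoters were matched by symbol to RefSeq (GRCh38.p14).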

Additional observations from a re-analysis of the deposited data

How the results depend on the processing

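The fitted fold changes kept their direction under the alternatives in 335 of 336 cases. These leave out CYP26B1, and the fold changes with 3 counts or fewer in a group. The test against a 2-fold change keeps the main fold change, so the direction in its 24 cases was fixed in advance. The exception was RDH10 between the passages, which ranged from −0.043 to 0.092 with a library left out (main value 0.04). Calls at the 2-fold limit changed for CYP26A1, CRABP2 and RDH10, as given above. With limma on log2(FPKM + 1), CRABP2 was also past the limits downward in P1 iMGCs against D150-ROs, and CYP26A1 was not past them between the RO stages. With every gene above 0 tested, CYP26B1 was past the limits in every comparison but that of the passages. Under the same filter STRA6 was past them, downward, between the passages. A further 30 fold changes moved by more than the spread between replicates, 26 of them with limma on FPKM. The number of other retinoid genes called between D70-ROs and hiPSCs was 28 in place of 18 when every gene with a count above 0 was tested, because 60 genes were then tested in place of 32. Between the passages it was 2 in place of 1 under that filter and 1 to 2 with a library left out, being 2 without P1 iMGC replicate 1, P1 iMGC replicate 2 or P5 iMGC replicate 3. Over all genes, the test against a 2-fold change called 2830 in place of 4276 between the RO stages and 161 in place of 332 between the passages. The latter count was 694 with every gene above 0, of 16194 tested, and 152 with limma on log2(FPKM + 1). Calls for higher levels made up 49.8% of all calls between the RO stages, but 63.3% and 64.4% with limma on log2(FPKM + 1) and log2(FPKM + 0.1), and 45.4% between P1 iMGCs and D150-ROs, but 22.9% and 22.7%. Upper-quartile factors moved the median of all genes by −0.10 and −0.11 in these 2 comparisons. With the replicate number as a block, the other retinoid genes called numbered 18, 19, 23 and 1 in the 4 comparisons, the same genes as without it, so the block changed none of these calls. Library totals limit the genes near 0 (CYP26B1 throughout, and CYP26A1, ALDH1A1 and ALDH1A3 in iMGCs), for which differences between the passages were not detectable or rest on counting intervals alone.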
